A study of Caenorhabditis elegans with 2 samples.

Results

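The flp, nlp and ins genes encode the small secreted signalling peptides of the nematode *Caenorhabditis elegans*, and their promoters were examined here for binding of the transcription factor ATF-7. The members are the protein-coding genes of the Ensembl annotation of genome build WBcel235 (the same assembly as ce11) whose symbol begins with flp-, nlp- or ins-. They number 140 of 19973 protein-coding genes, as 31 flp, 71 nlp and 38 ins genes. A gene was called bound when the summit of a peak lay from 1000 bp upstream to 200 bp downstream of any annotated 5′ end of the gene, a span called its promoter below.

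The assay was ChIP-seq, in which DNA bound by ATF-7 is enriched from sheared chromatin and then sequenced, and the material was whole worms of strain OP638. This strain carries the unc-119(tm4063) mutation on chromosome III and the integrated transgene wgIs638, which expresses ATF-7 with GFP and FLAG tags at its C terminus. The animals were young adults of mixed sex, pooled males and females, from cultures synchronised by bleaching and starvation at the L1 larval stage, and the chromatin was sheared by sonication. The series holds 2 biological replicates of this 1 group, numbered 2 and 3, with no second genotype, treatment or stage, so no difference between conditions can be tested. The description names an anti-GFP antibody while the antibody field names atf-7. Whole animals were used, so a site bound only in a few cells, such as single neurons, is diluted by the chromatin of all other tissues, and no tissue can be assigned to a peak. Expression of the peptide genes was not measured.

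Both replicates entered an irreproducible discovery rate (IDR) analysis by the authors, which compares how peaks rank in replicates. The resulting IDR list held 2247 peaks in ce11, and the 3 relaxed lists from which it was derived were longer, with 28126 peaks in replicate 2, 30000 in replicate 3 and 30000 in the pooled list. Relaxed lists contain background by design. The authors' signal gives each peak's strength against a control, on a scale of its own in each list, and ran from 104.608 to 1585.89 in the IDR list. The IDR list was the same as the 2247 pooled peaks with a signal of at least 104.608, and the next pooled peak had 104.592. Read depth is unknown, since the files hold no read counts.

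The 3 families differ in structure and in receptors. The flp genes encode FMRFamide-like peptides, which are cut from precursors, amidated and released from dense core vesicles to act on G protein-coupled receptors. The nlp genes are a mixed class of neuropeptide-like genes that also includes antimicrobial peptides made in the epidermis. The ins genes encode insulin-like peptides, which activate or oppose the receptor DAF-2 and so control growth, dauer entry, learning and lifespan. ATF-7 is a bZIP factor of the ATF and CREB family and is phosphorylated in immunity by PMK-1, a p38 kinase. Dimers of this family bind the cyclic-AMP response element (CRE), the palindrome TGACGTCA.

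The sequences at the summits on which the results turn are given first, 5′ to 3′ on the strand of the peptide gene, from the WBcel235 genome. Capitals mark 3 words found on either strand, so that some appear as their reverse complement. They are the CREB core TGACG, the full CRE, which contains that core on each strand, and the GATA site TGATAA. The stretch at *ins-39* (X:1344976-1345096, minus strand) surrounds the strongest promoter peak of any member and holds none of these words. The stretch in *nlp-36* (III:9488896-9489016, plus strand) surrounds a peak just inside the gene and holds the CRE. That of *ins-7* (IV:9682673-9682793, minus strand) surrounds the promoter summit just below the IDR list, and those of *nlp-31* (V:3979974-3980054, plus strand) and *nlp-27* (V:3989205-3989325, plus strand) surround weaker summits in a cluster of antimicrobial nlp genes. The stretch upstream of *flp-14* (III:12906746-12906866, plus strand) surrounds the strongest distal peak of an flp gene.
ins-39: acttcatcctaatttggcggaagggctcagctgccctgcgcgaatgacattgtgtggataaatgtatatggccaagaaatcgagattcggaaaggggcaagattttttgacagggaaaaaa
nlp-36: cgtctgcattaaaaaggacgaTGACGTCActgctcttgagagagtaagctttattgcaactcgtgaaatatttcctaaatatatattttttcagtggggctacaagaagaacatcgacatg
ins-7: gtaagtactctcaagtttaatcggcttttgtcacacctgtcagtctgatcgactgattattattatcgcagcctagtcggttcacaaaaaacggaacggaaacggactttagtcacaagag
nlp-31: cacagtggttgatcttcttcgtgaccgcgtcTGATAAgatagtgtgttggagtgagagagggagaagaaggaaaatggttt
nlp-27: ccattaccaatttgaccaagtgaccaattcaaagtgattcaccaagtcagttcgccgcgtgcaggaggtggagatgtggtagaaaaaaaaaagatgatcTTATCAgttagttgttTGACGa
flp-14: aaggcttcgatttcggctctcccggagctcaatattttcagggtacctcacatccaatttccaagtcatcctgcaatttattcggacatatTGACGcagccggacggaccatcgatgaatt

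Few peptide genes had an IDR peak in the promoter. Of the 140 members 2 were bound, *nlp-40* and *ins-39*, which is 1.43% (exact Clopper-Pearson 95% interval 0.173 to 5.07), against 1245 of 19973 protein-coding genes, the background of 6.23% (5.90 to 6.58). No flp gene was bound (0 of 31, interval 0 to 11.2%), while 1 of 71 nlp genes (1.41%, 0.0357 to 7.60) and 1 of 38 ins genes (2.63%, 0.0666 to 13.8) was. The interval of all members together ended below the background, but the interval of each family contained it, and the intervals of the 3 families overlapped one another. These intervals cover counting error only and treat genes as independent, which neighbouring genes that share a peak are not. At the background share 8.73 members would be bound. With the background share taken per chromosome this number was 9.09, and with that of genes of like upstream gap it was 7.81, each above the 2 found.

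**Figure D1:**
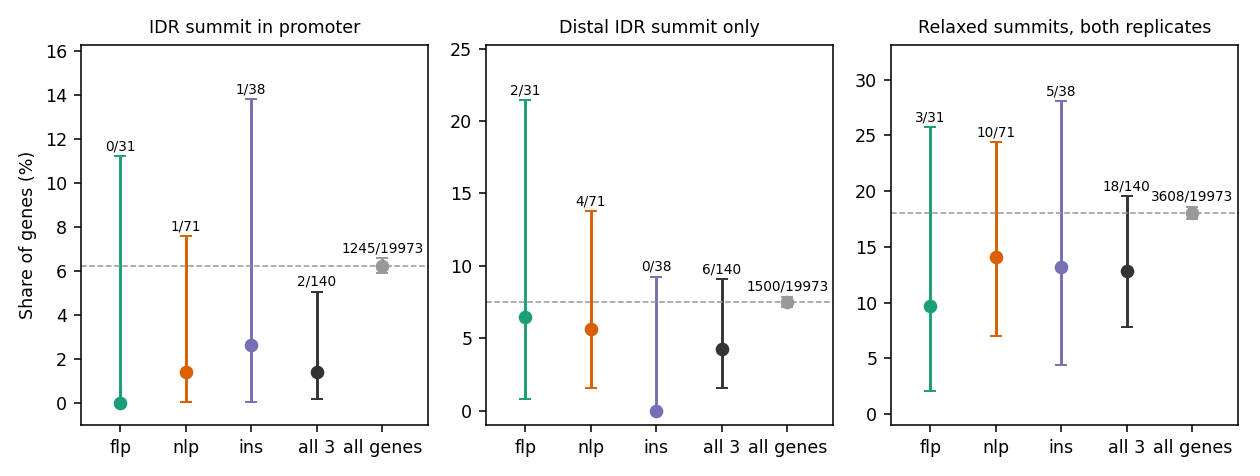
Share of genes (%) with an IDR summit in the promoter (left), with an IDR summit only further upstream, up to 5000 bp (middle) and with relaxed summits of both replicates within 100 bp of each other in the promoter (right). Points are shares, bars are exact Clopper-Pearson 95% intervals, numbers above them are genes called out of all genes of the group, and the dashed line is the share of all protein-coding genes, which lies above the point of all 3 families together in each panel.

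*ins-39* (WBGene00017668), an insulin-like peptide gene at X:1343758-1344421 on the minus strand, carried the stronger of both peaks. The peak spanned X:1344906-1345199, with its summit at 1345036, in intergenic DNA 615 bp upstream of the gene's 5′ end. Its signal was 369.688 in the IDR list, rank 133 of 2247. In replicate 2 the peak had a signal of 133.548 (rank 148 of 28126) and in replicate 3 a signal of 233.752 (rank 131 of 30000), so it stood among the strongest 0.526% and 0.437% of those lists. The summit lay in no other gene's promoter, and *ins-39* has 13349 bp of intergenic DNA upstream. Within 100 bp of the summit none of the words searched was found: TGACGTCA, TGACG, the E-box CACGTG, the GA repeat GAGAGAGA, the GATA site TGATAA and the scrambled CRE TCAGATGC, each on both strands. Of all 1103 IDR peaks in promoters 9.52% held the CRE and 41.8% held TGACG in such a window.

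*nlp-40* (WBGene00022276) encodes a peptide released by the intestine that sets off the expulsion step of the defecation rhythm. Its peak spanned I:11232-11445, with the summit at 11327, in intergenic DNA 168 bp upstream of the 5′ end. The signal was 279.81 in the IDR list (rank 260), 111.689 in replicate 2 (rank 239) and 169.699 in replicate 3 (rank 294). The CRE lay 11 bp from the summit, the word TGACG was counted at 2 positions, both within that CRE, and a GATA site lay 54 bp away. No other gene's promoter held this summit. An IDR peak at I:16902-17163, with a signal of 409.353 (143.583 in replicate 2 and 269.147 in replicate 3), lay just past the other end of the gene, 1922 bp downstream of its nearest 5′ end, and in no promoter. *nlp-40* thus had strong peaks on both flanks, and both were found in each replicate.

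Peaks just outside the promoter window were few as well. An IDR summit lay within the gene body of 2 members (1.43%), *nlp-36* and *ins-17*, against 782 of all genes (3.92%); the member genes are shorter, with a median length of 888 bp against 2027 bp. The *nlp-36* summit was in an intron, 225 bp downstream of the 5′ end and so 25 bp outside the window, in the peak III:9488738-9489173, with a signal of 138.805 (rank 1280), 63.94 in replicate 2 and 75.2285 in replicate 3. Its CRE, shown above, lies 39 bp from the summit, at III:9488917-9488924, in a coding exon. The *ins-17* summit lay in a UTR exon 520 bp downstream of the 5′ end, in the peak III:4476834-4477269, with a signal of 114.38 (rank 1878), 55.063 in replicate 2 and 61.696 in replicate 3. It held none of the words searched.

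Within 2000 bp of a 5′ end on either side an IDR summit lay for 10 members (7.14%), against 2170 of all genes (10.9%). They were 6 nlp and 4 ins genes and no flp gene; this span was chosen after the values were seen. The strongest of these peaks was next to *ins-13*, at II:5543420-5544246, with a signal of 538.96 (rank 52), 204.012 in replicate 2 and 336.542 in replicate 3. Its summit lay 1062 bp downstream of the 5′ end, past the short gene, and in no promoter. The next strongest was a second peak at *ins-17*, with a signal of 443.105 (rank 80) and its summit 1907 bp downstream. That summit lay in the promoters of *rps-1* and *ifet-1*. The peaks 865 bp downstream at *nlp-4* (signal 285.605), 1547 bp downstream at *ins-37* (176.799) and 1590 bp downstream at *nlp-1* (183.083) lay in promoters of other genes, those of *F59C6.18*, *F08G2.5* and *aex-4*. The peak 1355 bp downstream at *nlp-68* had a signal of 105.796, near the lower end of the IDR list, and lay in no promoter.

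Distal IDR summits, beyond the promoter and up to 5000 bp upstream of a member without a promoter summit, were found for 6 of 140 members (4.29%, interval 1.59 to 9.09), against 1500 of all genes (7.51%). They comprised 2 of 31 flp genes (6.45%), 4 of 71 nlp genes (5.63%) and 0 of 38 ins genes (interval 0 to 9.25%). The background lay within the interval of the 6 members. Every gene was searched over the same span, whatever genes lay in it. The median gap to the next gene upstream was 2522 bp for the members, and 5185 bp for the flp genes, against 937 bp for all genes.

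The strongest distal peak, 3876 bp upstream of *nlp-80* (signal 217.98, rank 481), lay 131 bp upstream of *T04C12.8*. Its replicates differed in rank, with a signal of 52.6 in replicate 2 (rank 1434) and 154 in replicate 3 (rank 372). The peak 1322 bp upstream of *nlp-76* (195.66, with 69.3 in replicate 2 and 128 in replicate 3) lay in an intron of *nhr-17*, 3 bp from a tRNA gene. The peak 3704 bp upstream of *flp-14* (194.712, with 74.7 and 119 in replicates 2 and 3) was intergenic, and the nearest 5′ end was that of *cox-5A*, 1315 bp away. It is the stretch shown above, and it held TGACG at 2 positions within 100 bp of the summit.

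The other 3 distal peaks were close to the lowest signal of the IDR list. That of *nlp-26* (112.233) lay 4563 bp upstream and 596 bp upstream of *grsp-1*. That of *flp-23* (107.474) lay 4489 bp upstream and 30 bp from a tRNA gene. That of *nlp-17* (106.177) lay 4432 bp upstream, in an intron of *afmd-2*. Of the 6 distal peaks 2 were therefore in the promoter of another protein-coding gene and 2 were within 30 bp of a tRNA gene. None held the CRE within 100 bp of its summit. Among all 2247 IDR peaks 1103 lay in a promoter and 9.79% held the CRE, so its absence from 6 peaks says little. The share of all IDR peaks near a tRNA gene was not counted. Which gene such a peak acts on, if any, was not tested.

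The peptide genes also lay far from IDR peaks in general. The median distance from a 5′ end to the nearest IDR summit was 24344.5 bp for the members (24114 bp for flp, 21406 bp for nlp and 29317 bp for ins genes), against 20147 bp for all genes. An IDR summit within 5000 bp, on either side, was found for 17 members (12.1%), against 19.9% of all genes. The closest IDR summit to any flp gene was 3704 bp away, at *flp-14*. At larger distances the order was the other way, with 83.6% of members, against 79.7% of all genes, within 50000 bp.

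**Figure D2:**
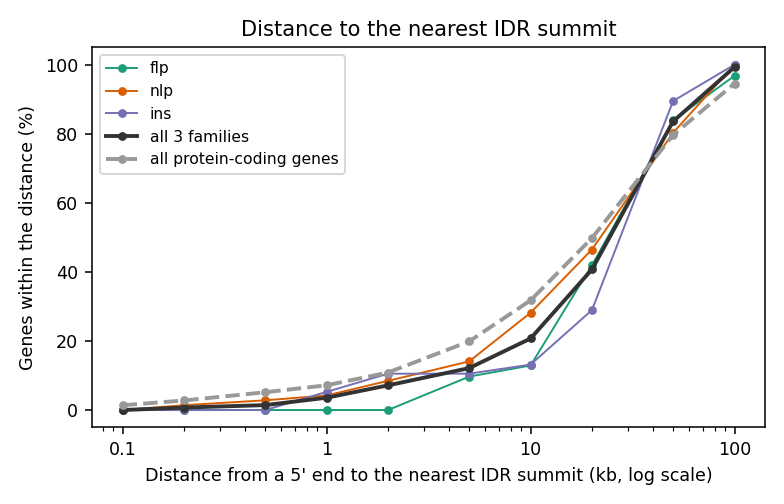
Cumulative share of genes (%) whose nearest IDR summit lies within the distance on the x axis (kb, log scale), for the flp, nlp and ins genes, all 3 families together and all protein-coding genes. The line of the 3 families runs below that of all genes up to 20 kb, and the flp line stays at 0 up to 2 kb.

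At the relaxed level the picture depended on the signal demanded. A pooled relaxed summit lay in the promoter of 55 members (39.3%, interval 31.1 to 47.9), against 37.6% of all genes, so that at this level the members were near the background. By family these were 15 of 31 flp genes (48.4%), 28 of 71 nlp genes (39.4%) and 12 of 38 ins genes (31.6%). In replicate 2 the members stood at 34.3%, against 36.9% of all genes, and in replicate 3 at 42.1%, against 38.2%. Summits of both replicates within 100 bp of each other were found in the promoters of 18 members (12.9%, 7.80 to 19.6), against 18.1% of all genes, as 3 flp, 10 nlp and 5 ins genes. Of the 140 members 63 had a promoter summit in none of the 3 relaxed lists, namely 11 flp, 31 nlp and 21 ins genes. That is 45% of the members (interval 36.6 to 53.6), against 49.4% of all genes.

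The members' relaxed summits were weak ones. Among genes with a pooled summit in the promoter the median of the strongest signal was 40.1 for the 55 members, against 48.9 for all 7510 such genes, and it was 33.5 for flp, 45.3 for nlp and 35.5 for ins genes. At a signal of at least 50 there were 15 members (10.7%), against 18.3% of all genes, and at least 75 there were 6 (4.29%), against 10.5%. No flp gene reached 50, although the flp genes had the largest share with any pooled summit. Their strongest was *flp-32*, with 48.8943 in the pooled list, 24.8681 in replicate 2 and 28.56 in replicate 3, at a summit 98 bp upstream. *flp-14* and *flp-28* were the other flp genes with summits of both replicates close together.

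**Figure D3:**
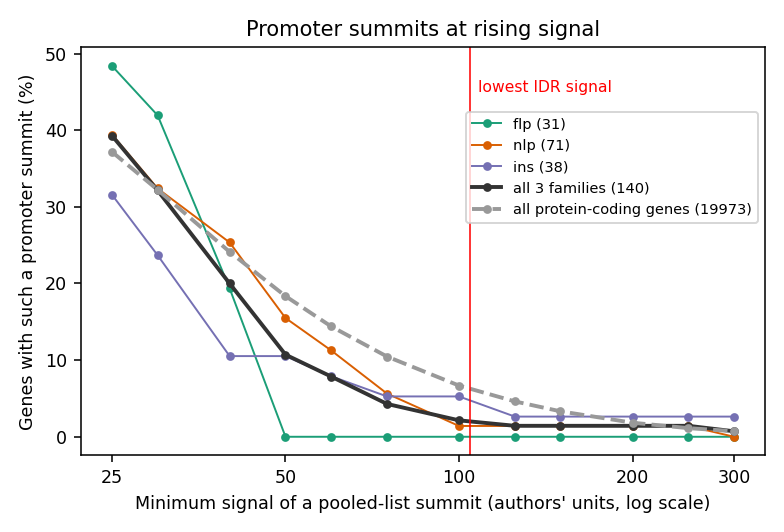
Share of genes (%) with a pooled-list summit in the promoter at or above the signal on the x axis (authors' units, log scale), for the flp, nlp and ins genes, all 3 families together and all protein-coding genes; the red line marks the lowest signal of the IDR list, 104.608. The flp line starts highest, at 48.4%, and is at 0 from a signal of 50 on, and the line of all 3 families is above that of all genes at 25 and below it from 30 to 200.

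Of the 53 unbound members with a pooled promoter summit, 14 had a summit of each replicate within 100 bp of it, 9 of replicate 2 alone, 22 of replicate 3 alone and 8 of neither. Their pooled signals ran from 25.4 to 103.883, with a median of 39.5. Both replicates thus had a summit there in 26.4% of these members (interval 15.3 to 40.3), against 36.1% of the 6265 unbound genes of all kinds with a pooled promoter summit, and neither had one in 15.1% (6.75 to 27.6), against 10.8%. Both of these background shares lay within the members' intervals. The pooled promoter peaks of the members that are not in the IDR list numbered 67; within 100 bp of the summit 4 of them held the CRE (5.97%), 21 held TGACG (31.3%) and 10 held the GATA site (14.9%). Among all 8663 such promoter peaks the shares were 3.68%, 28.2% and 20.7%.

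The member just outside the IDR list was *ins-7*, an insulin-like peptide that activates DAF-2 and is repressed by the FOXO factor DAF-16. Its summit lay 112 bp downstream of the 5′ end, in an intron, with a pooled signal of 103.883 at rank 2278, against 104.608 for the weakest IDR peak. It had 33.7479 in replicate 2 (rank 4166) and 69.0609 in replicate 3 (rank 2167), so it was among the 2247 strongest peaks of replicate 3 and not among those of replicate 2. The next insulin genes down were *ins-10*, with 60.8 at 98 bp upstream and no replicate 2 summit nearby, and *ins-13*, with 59.1 at 955 bp upstream, in a coding exon of *acdh-2*.

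At a signal of at least 50 stood 11 of 71 nlp genes (15.5%) and 4 of 38 ins genes (10.5%). The 18.3% of all genes lay within the exact 95% intervals of both families. Between signals of 50 and 104.608 lay 13 members, and 10 of them were nlp genes, the family with 71 of all 140 members. The cluster of *nlp-27* to *nlp-31* with *nlp-34* on chromosome V, whose peptides are known as epidermal antimicrobials for *nlp-29* and *nlp-31*, held 4 of these. A summit at V:3980014 served both *nlp-31*, 41 bp upstream, and *nlp-34*, 880 bp upstream, with a pooled signal of 83.7643, 26.4694 in replicate 2 and 55.0013 in replicate 3. *nlp-27* had 77.4425 at 113 bp upstream; replicate 3 had a summit there with 29.0453, and replicate 2 had its strongest promoter summit elsewhere, 66 bp downstream of the 5′ end, with 45.422. *nlp-29*, the best known gene of the cluster, had 66.4228 at 105 bp downstream, in its coding exon, with 17.7715 in replicate 2 and 36.6721 in replicate 3; replicate 2 had a stronger summit, of 33.2685, 36 bp upstream. *nlp-30* had 40.1 at 705 bp upstream, and *nlp-28* had no promoter summit in any list. The gene of the cluster closest to an IDR summit was *nlp-27*, at 35574 bp. The summits of this cluster thus all lay below the IDR level, in a stretch of chromosome V without an IDR peak.

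The remaining nlp genes above 50 lay outside this cluster. *nlp-81* had a pooled signal of 73.9243 at 288 bp upstream, *nlp-56* had 73.0947 at 186 bp upstream and *nlp-53* had 69.8359 at 298 bp upstream, each with a summit of both replicates within 100 bp. *nlp-25* had 55.6 and *nlp-26*, its neighbour on chromosome V, had 55.3, and only replicate 2 had a summit within 100 bp of these. *nlp-12*, a cholecystokinin-like peptide of the locomotor circuit, had 50.496 at 27 bp upstream, with 45.4473 in replicate 3 and no replicate 2 summit in the promoter.

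**Figure D4:**
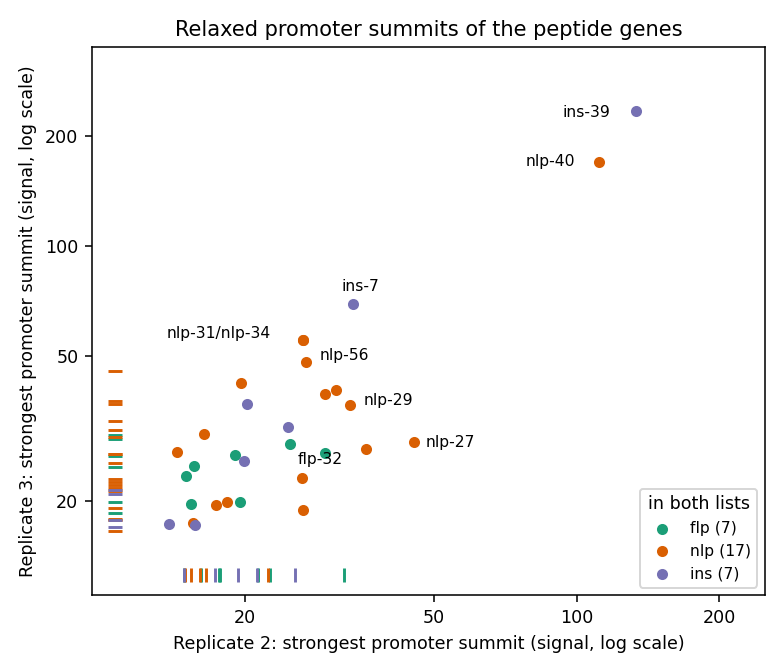
Strongest relaxed promoter summit of each peptide gene in replicate 2 (x axis) and in replicate 3 (y axis), as the authors' signal on log scales, coloured by family. Points are genes with a summit in both lists, which need not be the same summit, and ticks along the axes are genes with a summit in 1 list; *ins-39* and *nlp-40* stand apart in both replicates, followed by *ins-7* in replicate 3 and by *nlp-27* in replicate 2.

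Many well known members had no summit or a weak one, as did many genes of all kinds. Of all genes 49.4% had no promoter summit in any of the 3 relaxed lists, and 18.3% reached a pooled signal of 50. The well known *ins-7*, *nlp-29* and *nlp-12*, described above, reached that signal too. Among the flp genes, *flp-1*, whose peptides modulate locomotion, had no promoter summit in any list. *flp-11*, the main sleep-promoting peptide of the RIS neuron, had summits of 19.5 in replicate 2 and 19.8 in replicate 3 at different places, and none in the pooled list. *flp-18* and *flp-21*, which encode ligands of the receptor NPR-1, had pooled signals of 46.2 and 32.2. Among the nlp genes *nlp-22*, a sleep peptide of the RIA neuron, had 29.8, and *nlp-24*, an opioid-like peptide of feeding, had 22.5 in replicate 3 alone. *nlp-8*, a peptide of stress-induced sleep, had no summit.

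Well known insulin genes had equally low signals, apart from *ins-7*. *ins-6*, an activator of DAF-2 in dauer exit, had a pooled signal of 28.4 at 944 bp upstream. *ins-4* had no promoter summit in any list, and neither did *ins-2* and *ins-3*, which lie beside it on chromosome II, or *ins-18*, an antagonist of DAF-2. *ins-1*, which acts in salt learning, had 21.2 in replicate 2 alone, and *ins-33* had 21.4 in replicate 3 alone. *ins-11*, an intestinal peptide of pathogen avoidance learning, had no summit either; its nearest IDR summit, 12929 bp upstream, was that of the strong peak beside *ins-13*.

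The members were not spread over the genome like other genes. On the X chromosome lay 34 of the 140 (24.3%), against 13.7% of all genes, and 1 of the 34 was bound, against 7.51% of the X-linked genes. No member on chromosomes II to V was bound. An upstream gap over 5000 bp was found for 43 members (30.7%), against 13.6% of all genes, and 1 of these 43 was bound, against 5.24% of all genes with such a gap. A divergent neighbour upstream was found for 48 members (34.3%), against 42.2% of all genes.

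The promoters of the peptide genes held the CRE more often than other promoters, although few were bound. The word TGACGTCA was found in the promoters of 24 of 140 members (17.1%, interval 11.3 to 24.4), against 1440 of 19973 genes (7.21%). The share was 6 of 31 for flp (19.4%), 10 of 71 for nlp (14.1%) and 8 of 38 for ins genes (21.1%), and it was 14.4% over all bound genes. At the CRE shares of genes with like upstream gaps, 10.9 members would hold it. TGACG, which lies within the CRE but also elsewhere, was found in 88.6% of member promoters, against 76.4%. The other words were no more common in members: the E-box in 15.7%, against 21.4%, the GA repeat in 7.14%, against 10.4%, the GATA site in 67.9%, against 75.4%, and the scrambled CRE in 2.86%, against 4.18%. Of the 24 members with the CRE in the promoter 1 was bound, *nlp-40* (4.17%, interval 0.105 to 21.1). Of all genes with it 12.4% were bound, a share within this interval.

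The 24 members held 31 CRE sites, of which 2 had an IDR summit within 100 bp (6.45%, interval 0.791 to 21.4), those of *nlp-40* and *nlp-36*, against 129 of 1552 sites in all promoters (8.31%). Per site, therefore, the members did not differ from other promoters beyond counting error. A pooled relaxed summit lay within 100 bp of 6 of the 31 sites (19.4%), against 30.7% of the sites in all promoters. Many CRE sites of the genome are copies of repeated sequence, and this split was made after the values were seen: a site was called repeated when its 20 bases, the CRE with 6 bases on either side, occur more than once in the genome. Of the members' sites 24 were single and 7 repeated. The single ones had an IDR summit in 2 of 24 (8.33%), against 118 of 1079 in all promoters (10.9%), and the repeated ones in 0 of 7, against 11 of 473 (2.33%). Reads from identical copies may not be placed at 1 of them, and the part of this in the lower shares of repeated sites was not tested. The higher share of members with a CRE was also seen with single sites alone, in 22 of 140 members (15.7%), against 5.27% of all genes.

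**Figure D5:**
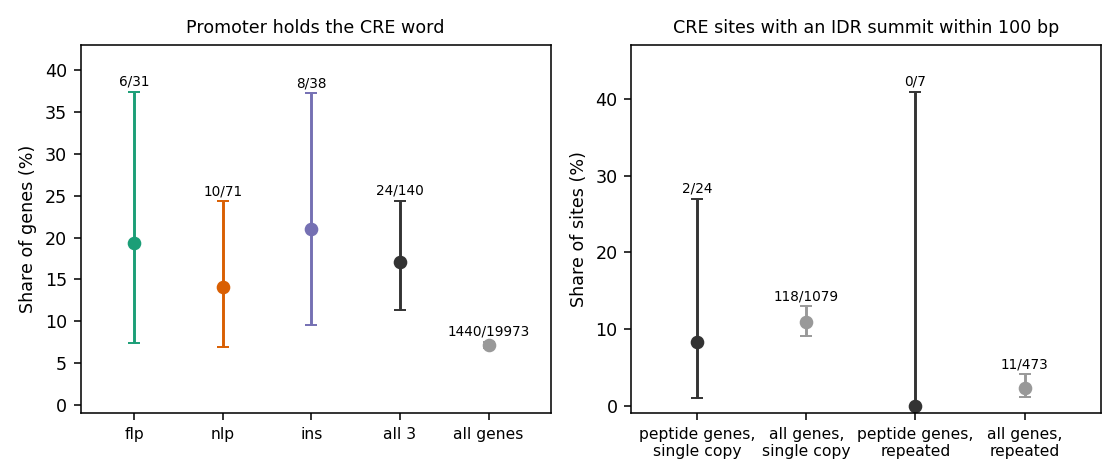
Left, share of genes (%) whose promoter holds TGACGTCA, for the flp, nlp and ins genes, all 3 families together and all protein-coding genes. Right, share of promoter CRE sites (%) with an IDR summit within 100 bp, for peptide genes and all genes and for sites whose 20 bases occur once or more than once in the genome; bars are exact Clopper-Pearson 95% intervals and numbers are counts. The point of each family lies above that of all genes on the left, and repeated sites lie below single ones on the right.

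Sites with and without a summit are shown for comparison, 38 bases each from the WBcel235 genome on the gene's strand, with the CRE in capitals. *nlp-56* (IV:14784892-14784929, minus strand, centred 173 bp upstream of the 5′ end) and *flp-7* (X:5885803-5885840, plus strand, 44 bp upstream) had a pooled relaxed summit there, with signals of 73.0947 and 44.4911. Both replicates had a summit at the *nlp-56* site (26.8343 in replicate 2 and 47.9464 in replicate 3). At the *flp-7* site replicate 2 alone had a summit (32.2507). *nlp-43* (III:5042268-5042305, plus strand, 126 bp upstream), *nlp-82* (II:9253174-9253211, minus strand, 164 bp upstream) and *ins-11* (II:5555934-5555971, plus strand, 779 bp upstream) had none in any list. The *nlp-82* site lies in an intron of that gene, upstream of an internal 5′ end. *ins-32* (II:3803749-3803786, minus strand, 448 bp upstream) carries a repeated site, whose 20 bases occur 317 times in the genome.
nlp-56: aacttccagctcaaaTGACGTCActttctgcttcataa
flp-7: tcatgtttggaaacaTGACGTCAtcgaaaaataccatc
nlp-43: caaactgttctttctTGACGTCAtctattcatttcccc
nlp-82: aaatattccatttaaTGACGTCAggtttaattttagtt
ins-11: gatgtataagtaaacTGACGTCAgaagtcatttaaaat
ins-32: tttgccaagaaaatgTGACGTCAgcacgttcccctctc

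The machinery that makes and releases peptides had more bound genes in proportion than the peptides themselves, but on small counts and with overlapping intervals. Of 22 genes of peptide processing and dense core vesicle release 2 were bound (9.09%, interval 1.12 to 29.2). This interval contained both the 6.23% of all genes and the 1.43% of the peptide genes. *egl-21*, the carboxypeptidase that trims peptide precursors, had a summit 13 bp downstream of its 5′ end with a signal of 105.448, at the low end of the list, with 34.3 in replicate 2 and 70.9 in replicate 3. *unc-108*, the Rab2 homologue needed for dense core vesicle maturation, had 2 IDR peaks in its promoter. The summit of 1 of them lay 559 bp upstream with 238.597, with 94.3 in replicate 2 and 146 in replicate 3. An IDR summit lay within the gene body of 5 of the 22 (22.7%, 7.82 to 45.4), against 3.92% of all genes. These were *egl-21*, *unc-108*, *ida-1*, *kpc-1* and *pgal-1*. The first 2 of these are the bound genes, and the promoter summit of *egl-21* also lies in its gene body. The genes of this list are long, with a median length of 5163.5 bp, against 2027 bp for all genes. Relaxed summits of both replicates within 100 bp were found for 9 of these 22 genes (40.9%, 20.7 to 63.6), against 18 of the 140 peptide genes (12.9%) and 18.1% of all genes.

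The peptide receptors were bound at a share close to that of the peptide genes. Of 107 receptor genes 2 were bound (1.87%, interval 0.227 to 6.59), and the 6.23% of all genes lay within this interval. At the relaxed level the receptors stood lower than the peptide genes. A pooled relaxed summit lay in 17.8% of receptor promoters (interval 11.0 to 26.3), against 39.3% for the peptide genes and 37.6% of all genes. Relaxed summits of both replicates close together were found for 8 receptor genes (7.48%), against 18.1% of all genes. A distal IDR summit was found for 0 of the 107 (interval 0 to 3.39%), against 4.29% of the peptide genes. *frpr-10*, an FMRFamide receptor-like gene, had a summit 911 bp upstream with a signal of 126.129. *sprr-2*, related to the sex peptide receptor, had one 50 bp downstream with 161.642 and the CRE within 100 bp. The insulin receptor gene *daf-2* was not bound, and 0 of 8 other secreted peptide genes, *daf-28* and *pdf-1* among them, were bound (interval 0 to 36.9%). Of 11 cnc genes, antimicrobial peptide genes related to the nlp cluster above, 1 was bound (9.09%, interval 0.230 to 41.3). The 6.23% of all genes lay within this interval too. The bound gene was *cnc-8*, with a signal of 187.673 at 124 bp upstream and the CRE within 100 bp.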

How the data were processed

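The authors mapped ATF-7 ChIP-seq reads to ce10 and ce11, called relaxed peaks against a control for each of the 2 replicates and for pooled reads, and derived the optimal IDR list from them, per the labels and a listing in the deposit. Which aligner, peak caller and IDR threshold they used is not given in the sources here. The deposited signal is the authors' value per peak, which was used only within a list. The deposited −log10 q values were not used to rank peaks. The ce11 lists alone were analysed, the ce10 lists and the control were not used here.

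Summits were joined to the Ensembl annotation (release 115) with Python 3.11.15, pandas 2.3.3 and SciPy 1.17.1, over 29314 5′ ends. The assignment of summits to promoters was checked on simulated summits. Shares carry exact Clopper-Pearson 95% intervals, which cover counting error only, and with 1 group no significance test was made. Words were searched on both strands. A peak in the promoters of several genes counted for each. Genes were named by a rule: all members with an IDR summit in the promoter, up to 5000 bp upstream or just outside the window, 16 well known members, and the bound genes of neighbouring lists. The others named were chosen after their values were seen. The members and lists were chosen with earlier results of these data known. One processing gene name, rab-2, was not found beside *unc-108*.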

Additional observations from a re-analysis of the deposited data

How the results depend on the processing

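The number of bound members was 2 or 3 of 140 (1.43% or 2.14%) in the 7 other settings tried, against 3.38% to 8.43% of all genes. No flp gene was bound in any of them. With the 1123 strongest IDR peaks the interval of the 2 bound members (0.173 to 5.07) contained the background of 3.38%. Intervals for 3 bound members were not computed. With a promoter of 500 bp on either side the nlp count was 2, as *nlp-36* entered, and the ins count was 0, as the summit of *ins-39* is 615 bp away. The nlp count was also 2 with 2000 bp upstream, where *nlp-76* entered, and with any overlap of the peak interval, where *nlp-36* entered. Taking the 2247 strongest peaks of 1 replicate in place of the IDR list gave 1 to 2 nlp genes, with *nlp-27* added without replicate 3, and 1 to 2 ins genes, with *ins-7* added without replicate 2. Members with a distal summit numbered 1 within 3000 bp (0.714%, against 4.09% of all genes), 3 with the 1123 strongest IDR peaks (2.14%, against 4.20%) and 4 outside other genes' promoters (2.86%, against 4.01%). They numbered 4 to 5 without 1 replicate, against 7.06% to 7.35% of all genes. Members with relaxed summits of both replicates numbered 11 within 50 bp (7.86%, against 12.8%), 9 with the upper part of each list (6.43%, against 12.03%) and 27 within 200 bp (19.3%, against 21.6%), where they were near the background. TGACG stayed at 1 of the 2 bound peaks in both other windows. No paired analysis was possible because there is 1 group of 2 replicates. Counts this small move by a whole gene at a time, and the unknown read depth limits what a missing peak shows.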

Other observations

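Beside the peptide genes, the srh and sri chemoreceptor genes, a large class expressed in few sensory neurons, were counted after the values were seen. Of 281 such genes 8 were bound (2.85%, exact 95% interval 1.24 to 5.53), against 6.23% of all genes. Relaxed summits of both replicates within 100 bp lay in the promoters of 22 of them (7.83%, 4.97 to 11.6), against 18.1% of all genes.

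Among the genome's 6026 CRE sites 1102 are followed by GCAC, and 961 of these are repeated in the sense used above (87.2%). Of the 1102 sites 4 had an IDR summit within 100 bp (0.363%), against 263 of all 6026 (4.36%) and 247 of the 4054 single sites (6.09%). Of the members' 31 sites 4 are of this type, in the promoters of *ins-32*, *nlp-32*, *nlp-36* and *nlp-56*, and none of these had a pooled relaxed summit within 100 bp. *nlp-36* and *nlp-56* each hold a single site as well, and it was the single site at which a summit lay.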
